A study of Rattus norvegicus with 4 samples.

Results

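In each droplet library of rat muscle, some barcodes held mostly or largely mitochondrial transcripts. These mitochondria-rich barcodes were defined as those with at least 500 unique molecular identifiers (UMIs) of which more than 20% lay on symbols starting with Mt-, whatever the number of genes. They numbered 2641 of the 17504 deposited barcodes (15.1%). A cutoff of this kind usually removes such barcodes before clustering. The 4 libraries came from rats aged 12 months, 1 library per group, from total cells freed by enzymatic digestion of the tibialis anterior (TA), a limb muscle, or of the muscles around the eyeball, the extraocular muscles (EOM). In each muscle 1 library is labelled wild-type (WT) and 1 is labelled DMD, by the disease state field. Strain, sex and allele are not stated in the labels used here, and no treatment was given per the labels' protocols. DMD is the usual abbreviation of Duchenne muscular dystrophy, a degeneration of muscle fibres from loss of dystrophin in which the extraocular muscles are relatively spared. The title of every sample states the opposite disease state, so the text speaks of libraries labelled WT or DMD, and reading the titles instead would turn each direction of DMD over WT. Counts of the Dmd transcript's 3' end do not check the labels.

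The mitochondrial genome encodes 13 protein subunits of the respiratory chain and the ATP synthase, and the nucleus encodes the remaining subunits and the machinery that copies and translates that genome. In droplet data a high mitochondrial share is commonly read as a cell that has lost cytosolic RNA, yet muscle fibres, pericytes and other oxidative cells carry many mitochondria while intact. Whole muscle fibres are too large for a droplet.

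Values in groups of 4 follow the order TA labelled WT, TA labelled DMD, EOM labelled WT and EOM labelled DMD. The libraries held 9955900, 20685086, 9468266 and 14953593 UMIs. With 1 library per group there is no replicate error, no test was made, and the 95% intervals cover counting error only. Each list of genes was summed over all barcodes of a pool and given as a share of the pool's nuclear UMIs, that is, UMIs on genes other than Mt- genes, because the Mt- UMIs chose the barcodes. Fewer cells of a type and less RNA per cell cannot be told apart in such sums. The libraries shared at most 10 barcode sequences per pair, and no mitochondria-rich barcode was shared.

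Mitochondria-rich barcodes were most frequent in TA labelled WT and rare in TA labelled DMD. They made up 1287 of 3550 barcodes in TA labelled WT (36.3%, exact Clopper-Pearson interval 34.7 to 37.9%). In TA labelled DMD they were 293 of 8944 (3.28%, 2.92 to 3.67%). In EOM labelled WT they were 407 of 1917 (21.2%, 19.4 to 23.1%), and in EOM labelled DMD 654 of 3093 (21.1%, 19.7 to 22.6%). The intervals of both EOM libraries overlapped, and those of both TA libraries lay on either side of them. These barcodes held 78.5%, 8.42%, 49.1% and 53.8% of all mitochondrial UMIs of their library, but 5.23%, 1.15%, 3.20% and 3.32% of its nuclear UMIs.

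The mitochondria-rich barcodes fell into a range with appreciable nuclear RNA and a range with almost none. Their median mitochondrial share was 98.6%, 25.4%, 45.1% and 56.9%, and their median nuclear UMI count was 19, 587, 434 and 323, against 2408, 1090, 3605 and 4281 in the other barcodes. Over 20% and up to 80% there were 406, 284, 286 and 370 barcodes, with a median of 587.5 nuclear UMIs and 389 genes over all 1346. Over 80% there were 881, 9, 121 and 284, and these 1295 had a median of 15 nuclear UMIs and 26 genes. The ranges were separated by a sparse stretch, since only 66 barcodes lay between 80% and 95% while 1229 lay over 95%. The lowest total of a barcode over 95% was 1002, 1450, 1472 and 1330 UMIs, above the deposited minimum of 500. A minimum of 200 genes would have removed 898, 11, 149 and 327 mitochondria-rich barcodes. TA labelled WT therefore owes 881 of its 1287 to the near-empty range, and TA labelled DMD 9 of its 293.

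**Figure D1:**
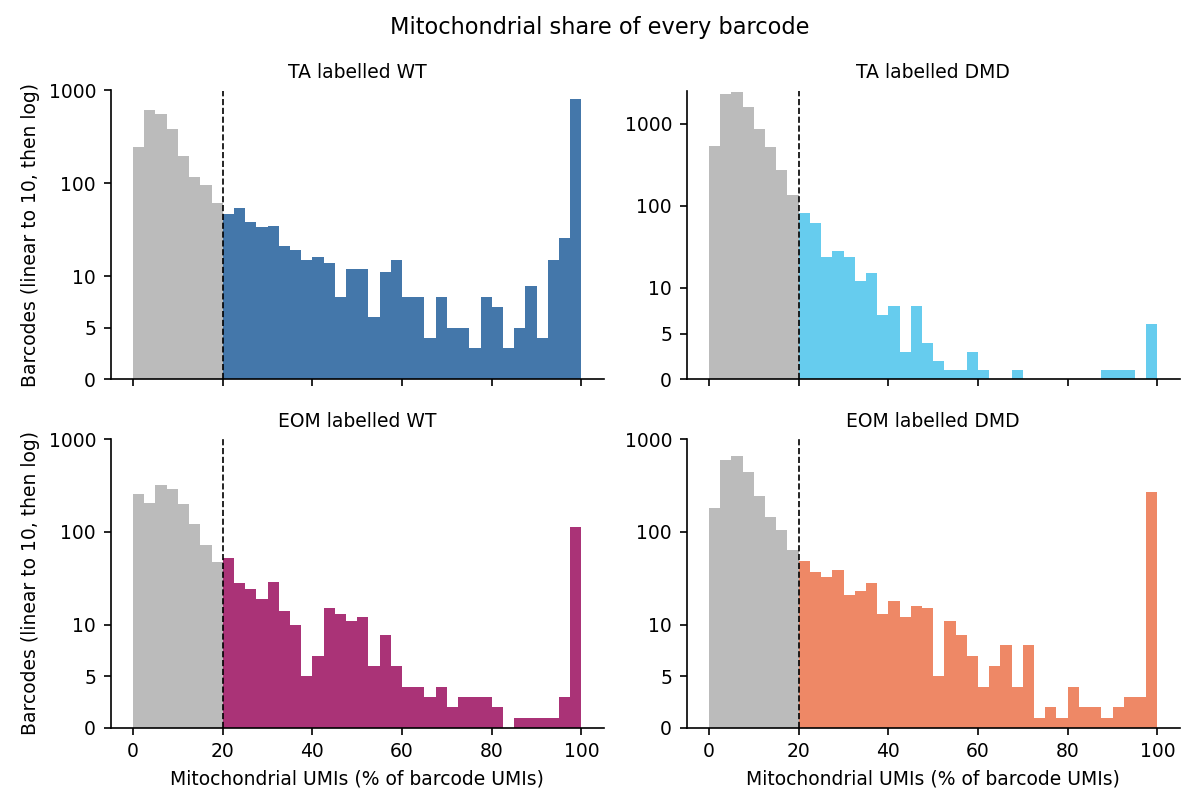
Number of barcodes (vertical axis, linear to 10 and logarithmic above) by mitochondrial share of UMIs (horizontal axis, bins of 2.5 percentage points) in each library, with barcodes up to 20% in grey and the cutoff as a dashed line. A second peak near 100% stands out in TA labelled WT (838 barcodes over 95%), EOM labelled DMD (270) and EOM labelled WT (115), and is nearly missing in TA labelled DMD (6).

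No gap in the distribution marked the 20% cutoff itself. Just inside it, from 20 to 22%, lay 39, 69, 39 and 45 barcodes, 192 in all with a median of 809.5 nuclear UMIs. Just outside it, from 18 to 20%, lay 46, 101, 38 and 52 barcodes, 237 in all with a median of 859.

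Among the mitochondrial transcripts, Mt-nd1 was 1 of several that differed between the muscles. In mitochondria-rich barcodes the scarce Mt-nd4l made up 0.447%, 0.498%, 0.296% and 0.194% of the mitochondrial UMIs. Mt-atp8, also scarce, made up 0.108%, 0.122%, 0.0654% and 0.0691%. Mt-co1, Mt-co2 and Mt-co3, the core subunits of cytochrome oxidase, were among the most abundant in every library, and Mt-co3 made up 15.9%, 16.6%, 17.7% and 16.7% of the mitochondrial UMIs of mitochondria-rich barcodes. Mt-nd1, a subunit of complex I, made up 9.18% and 8.81% in the TA libraries and 6.46% and 6.31% in the EOM libraries. Mt-nd1 was lower in EOM from 20 to 80% mitochondrial share (9.22%, 8.81%, 6.95% and 6.91%) and over 80% (9.17%, 8.75%, 6.26% and 6.13%). Mt-co1 was at 15.4% and 13.3% in TA and 17.0% and 17.7% in EOM. Its order did not hold in both ranges, since from 20 to 80% it was at 15.4%, 13.1%, 14.7% and 16.7%, with EOM labelled WT below TA labelled WT, and over 80% at 15.3%, 14.6%, 18% and 18%. The other barcodes showed the same order of muscles for Mt-nd1 (9.52%, 8.59%, 7.06% and 7.35%) and for Mt-co1 a narrower spread (15.4%, 14.8%, 15.6% and 15.8%). Mt-cyb, the mitochondrial subunit of complex III, differed little, at 11.2%, 10.9%, 10.7% and 11.2%. Mt-atp6, a subunit of the ATP synthase, made up 13%, 13.3%, 14.7% and 13.3%.

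**Figure D2:**
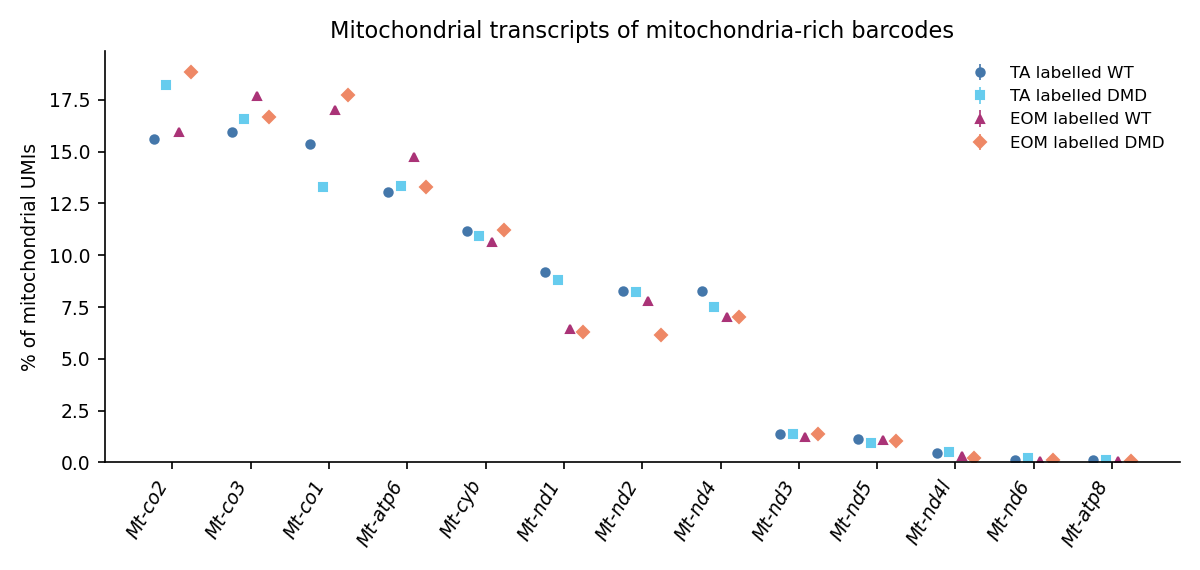
Share of each of the 13 mitochondrial protein genes in the mitochondrial UMIs of mitochondria-rich barcodes (vertical axis, percent), by library, with 95% counting intervals. Mt-nd1 is lower and Mt-co1 higher in both EOM libraries (6.46% and 6.31%, 17.0% and 17.7%) than in both TA libraries (9.18% and 8.81%, 15.4% and 13.3%). From 20 to 80% alone, Mt-co1 is lower in EOM labelled WT (14.7%) than in TA labelled WT (15.4%).

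In 3 libraries, barcodes with a mitochondrial share over 40% held more muscle fibre RNA, as a share of nuclear RNA, than any bin under 20%. The myofibre markers used here with a row in the feature table were Acta1, the actin of the skeletal sarcomere, Ckm, the muscle creatine kinase, Neb, the ruler of the thin filament, the fast myosin chains Myh4 and Mylpf, and the fast troponin subunits Tnnt3 and Tnnc2, 7 of the 11 listed genes. In TA labelled WT they made up 0.535%, 0.343% and 0.932% of nuclear UMIs at 0 to 5%, 5 to 10% and 10 to 20% mitochondrial share, then 0.828%, 1.44%, 2.31% and 4.40% in the bins ending at 40, 60, 80 and 100%. In EOM labelled WT the same 7 bins gave 0.0981%, 0.0746%, 0.183%, 0.335%, 1.49%, 2.30% and 3.54%. EOM labelled DMD gave 0.678%, 0.115%, 0.267%, 1.74%, 2.20%, 1.98% and 6.45%. The top bin was thus the richest in myofibre transcripts in these 3 libraries. TA labelled DMD gave 0.342%, 0.104%, 0.217%, 0.177% and 1.32% up to 60%, and its last bins held only 2 and 9 barcodes.

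**Figure D3:**
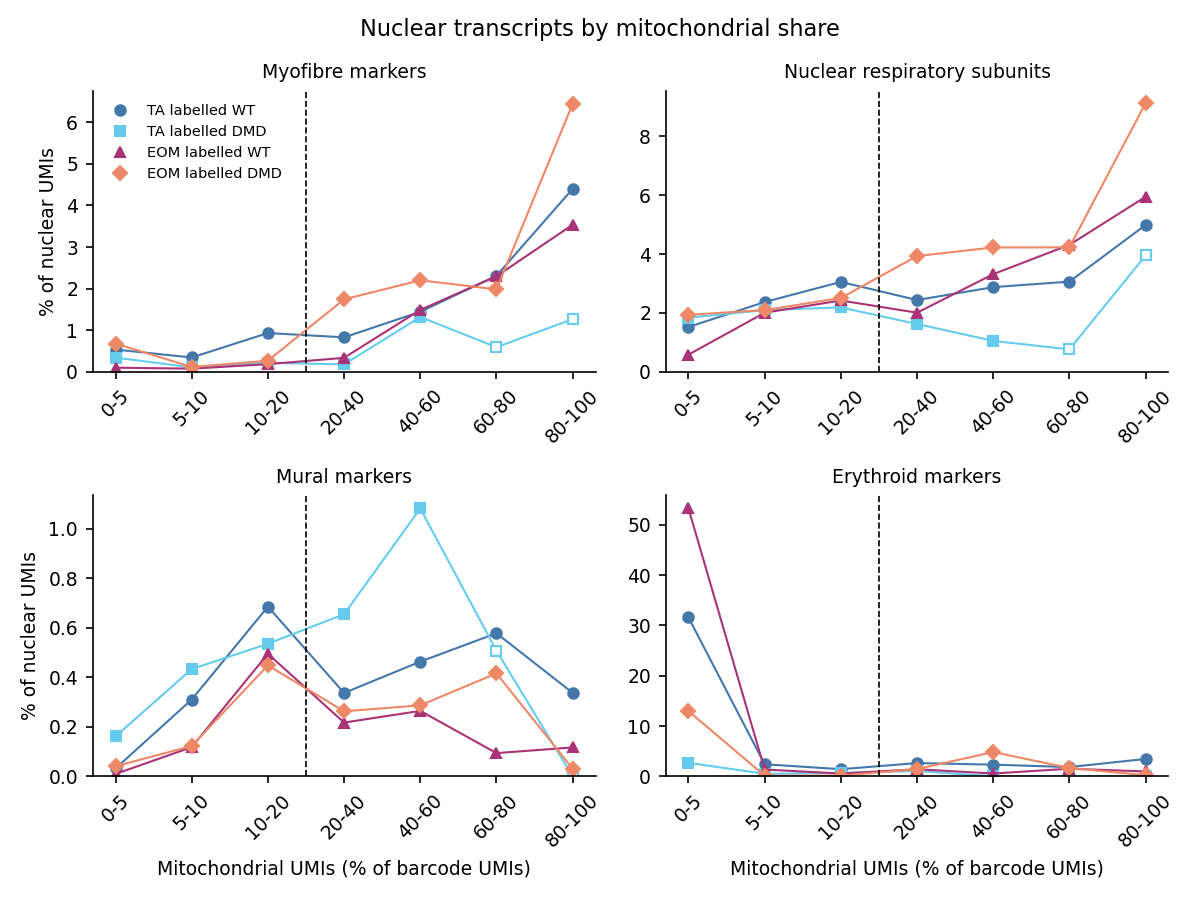
Share of nuclear UMIs (vertical axis, percent) on myofibre markers, nuclear-encoded respiratory subunits, mural markers and erythroid markers by bin of mitochondrial share (horizontal axis, percent of UMIs), 1 line per library, with open symbols for bins under 20 barcodes and the cutoff dashed. Myofibre markers reach 4.40%, 3.54% and 6.45% in the last bin of TA labelled WT, EOM labelled WT and EOM labelled DMD, while erythroid markers are highest in the first bin of each library.

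Set against the other barcodes, the mitochondria-rich barcodes together carried a larger share of muscle fibre RNA. In TA labelled DMD the excess was small and its direction varied with the settings. Myofibre markers made up 1.27%, 0.301%, 0.643% and 1.93% of their nuclear UMIs against 0.515%, 0.234%, 0.103% and 0.365% in the others. The ratios were 2.46 (2.39 to 2.54), 1.29 (1.19 to 1.39), 6.21 (5.90 to 6.54) and 5.29 (5.16 to 5.41). A gene was called when its level, in counts per 1000000 nuclear UMIs (CPM) with 10 added, differed at least 2-fold. Of the 7 markers, 7, 3, 7 and 7 were called higher, beside a background of 4.07%, 10.6%, 26.5% and 4.96% of the 8806 genes tested. The median log2 ratio of the markers was 1.44, 0.47, 2.55 and 2.41, against 0.31, 0.21, 0.64 and 0.13 over all genes tested. The value of TA labelled DMD rests on few barcodes: 1 barcode held 44.6% of the myofibre UMIs from 20 to 80%, and the ratio was 0.663 as a mean of per-barcode shares, 0.557 after thinning every barcode to 200 nuclear UMIs and 0.958 with a cutoff at 10%. Thinning also reduced the ratio to 1.93, 2.06 and 2.33 in the other libraries, and without barcodes rich in erythroid markers it was 1.88, 1.29, 3.69 and 5.05.

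Most of this RNA sat in a minority of barcodes. Among mitochondria-rich barcodes with at least 200 nuclear UMIs, 43 of 422, 2 of 285, 7 of 279 and 33 of 371 had over 10% of their nuclear UMIs on the myofibre markers. They held 81.8%, 57.3%, 38.0% and 56.6% of the marker UMIs. Among the other barcodes 5.35%, 1.28%, 1.52% and 3.44% passed the same 10% mark, against 10.2%, 0.702%, 2.51% and 8.89% of the mitochondria-rich ones. The median mitochondria-rich barcode had none of these UMIs in any library.

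Single contractile genes followed the list. Myh4, the fastest limb myosin, was at 458, 300.4, 201 and 552 CPM in mitochondria-rich barcodes against 91.6, 53.6, 20.7 and 65.2 CPM in the others, log2 ratios of 2.20, 2.29, 2.78 and 2.90. It was higher in all 4 libraries, but in TA labelled DMD 1 barcode held 83.6% of its UMIs. Tnnt3, the fast troponin T, was at 1758, 502, 1102 and 3241 CPM against 578, 233, 180 and 583 CPM. Its log2 ratios were 1.59, 1.07, 2.55 and 2.46. Acta1 was at 4327, 708, 978 and 3064 CPM against 2122, 924, 234 and 702 CPM, so it was higher in 3 libraries and slightly lower in TA labelled DMD (log2 -0.38). Actc1, the cardiac actin, was at 205 and 596 CPM in the EOM libraries against 29.2 and 91.1 CPM, while TA labelled WT had 2 UMIs and TA labelled DMD none. Mb, the oxygen store myoglobin, was at 1643, 233, 2421 and 4933 CPM against 709, 55.0, 314 and 748 CPM, log2 ratios of 1.20, 1.90, 2.91 and 2.71. Its highest level and its highest ratio were thus both in EOM.

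Lists of fibre genes separated by type. The calls stand beside a background of 4.07%, 10.6%, 26.5% and 4.96% of all genes tested called higher. In TA labelled DMD 2.41% were called lower. Fast contractile genes (10 tested) were 2.56, 1.55, 5.89 and 5.19 times as high in mitochondria-rich barcodes, with 9, 2, 8 and 10 called higher and 1 lower in TA labelled DMD. Slow contractile genes (7 tested) were 1.27, 1.05, 3.64 and 2.61 times as high, with 0, 2, 5 and 4 called higher. Both lists stood further above the others in EOM than in TA. Genes of calcium handling (10 tested), which load and release the calcium that triggers contraction, were 2.18, 3.12, 2.90 and 3.08 times as high, with 5, 8, 5 and 7 called. For this list, unlike the fast genes, TA labelled DMD stood at the level of the EOM libraries. Scaffold genes of the sarcomere (9 tested) were 2.10, 1.40, 3.88 and 4.31 times as high, and enzymes of glycolysis and glycogen use (10 tested) 1.83, 0.855, 2.37 and 2.31. Genes of fat oxidation and oxygen store were also higher. They had 1079 of 414608, 196 of 223068, 920 of 273087 and 2779 of 434426 nuclear UMIs in mitochondria-rich barcodes. The other barcodes had 10081 of 7512371, 13071 of 19175437, 5819 of 8261810 and 17759 of 12662897. Sln, the small peptide that slows the calcium pump, stood out in EOM, with 54.9 and 230 CPM against 4.7 and 26.8 CPM (log2 2.14 and 2.71), and had log2 ratios of 0.22 and 0.95 in TA.

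**Figure D4:**
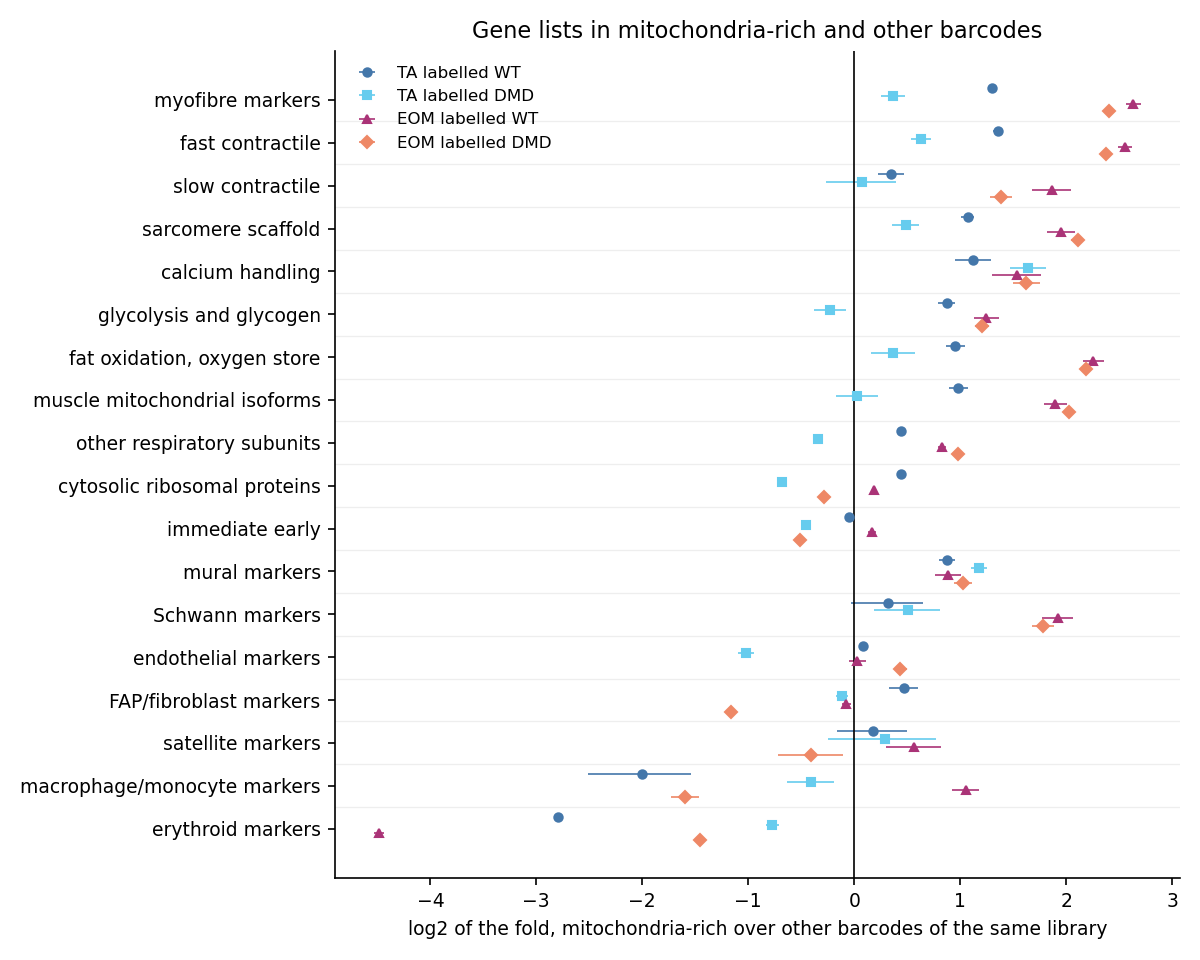
log2 of the ratio of mitochondria-rich over other barcodes (horizontal axis) for 18 gene lists, as shares of nuclear UMIs, by library with 95% counting intervals. Both EOM libraries lie to the right of both TA libraries for contractile lists, fat oxidation and oxygen store, and muscle isoforms of mitochondrial proteins. Erythroid markers lie left of 0 in all 4, and TA labelled DMD lies nearest 0 or below it for most metabolic lists.

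Nuclear-encoded mitochondrial genes did not simply follow the mitochondrial transcripts. Isoforms of mitochondrial proteins used in muscle (5 tested), such as Cox6a2 of cytochrome oxidase and the carrier Slc25a4, were 1.98, 1.02, 3.73 and 4.06 times as high in mitochondria-rich barcodes. Of these, 3, 2, 5 and 5 were called higher, beside a background of 4.07%, 10.6%, 26.5% and 4.96%. Cox6a2 was at 531, 143, 593 and 1678 CPM against 205, 44.6, 67.1 and 252 CPM. Its log2 ratios were 1.33, 1.49, 2.97 and 2.69. The remaining respiratory subunits, which all cells use (75 tested), made up 2.72%, 1.56%, 2.36% and 4.11% of nuclear UMIs against 2%, 1.98%, 1.33% and 2.08%, ratios of 1.36, 0.791, 1.78 and 1.97. No subunit was called in the TA libraries. In EOM labelled WT 21 of 75 were called higher, a share near the background of 26.5% there, and in EOM labelled DMD 30 of 75, beside a background of 4.96%. Without erythroid-rich barcodes the ratios were 1.05, 0.782, 1.09 and 1.88. The list's median log2 ratio was 0.44, -0.34, 0.81 and 0.93, so relative to all genes it was lower in TA labelled DMD and higher in the others. Over 80% mitochondrial share the list made up 4.99%, 3.96%, 5.95% and 9.13% of nuclear UMIs. Genes that copy and express the mitochondrial genome (8 tested) were 1.38, 0.931, 2.20 and 1.24 times as high, with 4 called, all in EOM labelled WT. Mitochondrial ribosomal proteins (69 tested) were 1.19, 0.801, 1.48 and 1.27 times as high. In EOM labelled WT the median of that list, 0.45, was below the median of all genes.

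Markers of mural cells, the pericytes and smooth muscle that wrap small vessels, made up a larger share of nuclear UMIs in mitochondria-rich barcodes of every library, by an amount that varied with the settings. They made up 0.381%, 0.694%, 0.220% and 0.266% of nuclear UMIs against 0.207%, 0.307%, 0.119% and 0.131%, ratios of 1.84 (1.74 to 1.94), 2.26 (2.15 to 2.38), 1.85 (1.70 to 2.01) and 2.04 (1.92 to 2.16). Of 10 markers 3, 6, 6 and 6 were called higher, and 2 lower in EOM labelled WT, beside the background of 4.07%, 10.6%, 26.5% and 4.96% given above. Without erythroid-rich barcodes the ratios were 1.39, 2.29, 1.13 and 1.95, so the excess in EOM labelled WT was small there. Pdgfrb, the receptor that recruits pericytes, was at 323, 767, 443 and 405 CPM against 148, 256, 119 and 136 CPM. Notch3, a receptor of vascular smooth muscle, had log2 ratios of 0.95, 1.71, 1.75 and 0.99. Both receptors were higher in all libraries. Myh11, the myosin of smooth muscle, was at 596, 1224, 51.3 and 306 CPM against 145, 217, 55.7 and 78.7 CPM, so it was not higher in EOM labelled WT (log2 -0.10). The mural share did not climb with the mitochondrial share as the myofibre share did. It was highest from 10 to 20%, just under the cutoff, in TA labelled WT (0.685%), EOM labelled WT (0.495%) and EOM labelled DMD (0.448%), and from 40 to 60% in TA labelled DMD (1.08%).

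Schwann cell markers, of the glia that wrap nerve fibres, were 1.25 (0.979 to 1.57), 1.42, 3.78 and 3.44 times as high. Of 8 markers 2, 1, 6 and 6 were called higher, beside a background of 4.07%, 10.6%, 26.5% and 4.96%. In TA labelled WT 1 was called lower, beside a background of 0.84%. Without erythroid-rich barcodes the Schwann ratios were 0.972, 1.40, 2.29 and 3.28. Scn7a, a sodium channel of non-myelinating glia, was at 370 CPM against 20.9 CPM in EOM labelled WT (log2 3.62), with log2 ratios of 0.75 in TA labelled DMD and 1.33 in EOM labelled DMD. In TA labelled WT its ratio of 1.37 rested on 1 barcode with 73.7% of its 19 UMIs. The glial excess was therefore clearest in the EOM libraries.

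Other cell types took no common direction. Endothelial markers were 1.06, 0.493, 1.02 and 1.35 times as high, and fibroblast markers, of the fibro-adipogenic progenitors (FAPs) that make matrix, 1.38, 0.922, 0.948 and 0.448. Satellite cell markers, of the stem cells of muscle, were 1.13, 1.22, 1.48 and 0.754 times as high. Macrophage and monocyte markers were 0.249, 0.755, 2.07 and 0.331 times as high. Lyz2, the lysozyme of macrophages, was lower in all 4 libraries, at 36.2, 421, 201 and 288 CPM against 297, 727, 583 and 1751 CPM. Pf4, a platelet chemokine, was at 297 and 965 CPM in the EOM libraries against 44.1 and 162 CPM, a log2 ratio of 2.5 in both. Pf4 was at 19.3 and 9.0 CPM in the TA libraries.

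Red cell transcripts were scarcer in mitochondria-rich barcodes. Erythroid markers, the globins and Alas2 of haem synthesis (5 tested), made up 2.56%, 0.946%, 1.26% and 1.97% of nuclear UMIs in mitochondria-rich barcodes against 17.8%, 1.61%, 28.2% and 5.39% in the others, with 5, 2, 5 and 4 called lower beside a background of 0.84%, 2.41%, 0.761% and 2.96%. Hbb, the beta globin, was at 3145, 1116, 2139 and 1542 CPM against 23631, 2271, 52863 and 3515 CPM. Such a load in the other barcodes lowers the share of every other gene there. Without barcodes with over 10% of nuclear UMIs on these markers, an alternative added after the data were seen, the log2 ratio of Hbb was 1.73, 0.00365, 0.97 and 1.22. Without them the ratios of other lists fell most in EOM labelled WT: fast contractile genes were 3.54 times as high there, muscle isoforms of mitochondrial proteins 2.23 times, genes that copy and express the mitochondrial genome 1.34 times, macrophage markers 1.26 times and cell death genes 1.13 times.

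Lists often read as signs of damage or stress stayed within 2-fold of the other barcodes. Immediate early genes, which dissociation induces, were 0.966, 0.732, 1.12 and 0.703 times as high, with 1 of 12 called in all 4 libraries together. Genes of the integrated stress response were 1.17, 0.925, 1.32 and 1.10 times as high (5 tested), and those of cell death 1.22, 0.993, 1.89 and 1.93 (9 tested). Cycs, cytochrome c, which is both a respiratory carrier and a trigger of apoptosis, had log2 ratios of 0.50, -0.08, 1.01 and 1.44. Cytosolic ribosomal proteins (77 tested) were 1.36, 0.622, 1.14 and 0.818 times as high, with a median log2 ratio of 0.41, -0.68, 0.20 and -0.29.

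Over all nuclear genes, calls leaned to the higher side in mitochondria-rich barcodes, by 358 against 74 lower, 934 against 212, 2330 against 67 and 437 against 261. The split moved with the scaling. With the median log2 ratio set to 0 the split was 71 against 177, 476 against 480, 350 against 364 and 305 against 354, and with edgeR's TMM factors 32 against 254, 368 against 636, 141 against 845 and 245 against 425. Without erythroid-rich barcodes and with the first scaling it was 112 against 128, 950 against 249, 587 against 229 and 388 against 305. Genes were ranked by their lowest log2 ratio over the libraries, and 6 of the highest ranked, given next, stayed positive in all libraries under both scalings. The ranking itself picks genes higher in every library, so their shared direction is a description only. Itga7, a laminin receptor of muscle fibres and mural cells, was at 217, 386, 242 and 177 CPM against 80.4, 92.8, 57.0 and 51.6 CPM, log2 ratios of 1.33, 1.94, 1.91 and 1.60. Itgb4, an integrin chain that binds laminin, was at 62.7, 345, 439 and 382 CPM against 18.4, 122, 25.3 and 85.5 CPM. Hrc, a calcium-binding protein of the sarcoplasmic reticulum, was at 106, 117, 80.6 and 64.5 CPM against 22.1, 22.6, 11.9 and 19.0 CPM. All 3 were higher in every library, by the way they were picked. Smtn, smoothelin of smooth muscle, had log2 ratios of 1.24, 1.61, 1.53 and 1.79, Mrvi1, a regulator of smooth muscle relaxation, 1.38, 1.69, 2.39 and 1.55, and Prodh1, the mitochondrial proline dehydrogenase, 1.41, 1.45, 1.89 and 1.35. Dmd was at 65.1, 193, 128 and 32.2 CPM against 27.3, 26.2, 21.3 and 21.5 CPM, log2 ratios of 1.01, 2.49, 2.14 and 0.42, under both disease labels. At the other end, RT1-Ba, a rat class II antigen, had log2 ratios of -0.81, -0.97, -3.54 and -3.09.

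The barcodes over 80%, most of them nearly empty one by one, together had a higher myofibre share than any other bin in 3 libraries. In TA labelled DMD that share rested on 8 UMIs. Their nuclear UMIs summed to 23747, 632, 5145 and 9755, of which 1045, 8, 182 and 629 lay on myofibre markers, 8.54 (8.02 to 9.08), 5.42 (2.34 to 10.7), 34.2 (29.4 to 39.6) and 17.7 (16.3 to 19.1) times the share in the other barcodes. In TA labelled WT, EOM labelled WT and EOM labelled DMD these UMIs were spread over 308, 70 and 136 barcodes, of which the richest held 12.9%, 6.59% and 15.3%. In TA labelled DMD they came from 3 barcodes. Muscle isoforms of mitochondrial proteins were 6.63, 1.72, 16.8 and 11.9 times as high there. Mural markers, by contrast, made up 0.337%, 0%, 0.117% and 0.0308%, and Schwann markers had 1, 0, 4 and 5 UMIs in all. Fibroblast markers were 0.838, 0.542, 0.430 and 0.302 times the share in the other barcodes. Of the nuclear UMIs over 80%, only 13515, 184, 2359 and 4625 came from barcodes over 95%. The 66 barcodes between 80% and 95%, with a median of 200 nuclear UMIs, held the rest. The lists were not split between these ranges.

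A few muscle genes, chosen after their values were seen, differed in these near-empty barcodes between the 1 TA library with enough of them and both EOM libraries. Actc1 had 0 UMIs in TA labelled WT, 10 in EOM labelled WT and 22 in EOM labelled DMD, at least 15.4-fold and at least 17.9-fold higher than the limit that 3 counts in the TA pool allow. Myl3, a light chain of slow and cardiac myosin, had 45 UMIs in TA labelled WT, 1 in EOM labelled WT and 2 in EOM labelled DMD, ratios of 0.103 (0.00254 to 0.601) and 0.108 (0.0127 to 0.414). Acta1 had 323, 26 and 109 UMIs in the same 3 libraries (1.36%, 0.505% and 1.12% of nuclear UMIs). Mb had 151, 62 and 145 (0.636%, 1.21% and 1.49%). Actc1 and Mb were thus higher and Myl3 lower in both EOM pools, the same directions as in the whole set of mitochondria-rich barcodes. The part of free RNA in these counts was not tested.

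Between the TA libraries, the mitochondria-rich barcodes labelled DMD carried less RNA of most muscle fibre lists and more matrix and tendon RNA than those labelled WT. Called genes numbered 955 higher (10.8% of those tested) and 606 lower (6.88%), a split that became 752 against 783 with the median set to 0 and 719 against 820 with TMM factors. Myofibre markers were 0.237 times as high (0.219 to 0.257), with 5 of 7 called lower and 1 higher, and respiratory subunits 0.574 times (21 of 75 lower). In the other barcodes the myofibre ratio was 0.453, and without barcodes rich in myofibre markers it was 0.827 among the mitochondria-rich. Marker-rich barcodes, picked by the same markers, thus set much of it. Calcium handling genes went the other way, with 282 of 223068 nuclear UMIs in TA labelled DMD against 324 of 414608 in TA labelled WT. Ckm was at 206 CPM against 2094 CPM (log2 -3.28), Pgam2, the muscle phosphoglycerate mutase, at 35.9 against 470.3 CPM, and Myoz1, a protein of the fast Z-disc, at 13.4 against 186 CPM. Ckmt2, the mitochondrial creatine kinase of muscle, had no UMI in TA labelled DMD against 152 CPM, at least 11.3-fold lower. Fibroblast markers were 9.13 times as high (8.28 to 10.1, 7 of 8 called) and tenocyte markers 18.5 times (12.3 to 28.9). Thbs4, a tendon and muscle matrix protein, was at 932 CPM against 16.9 CPM (log2 5.13), and Dcn, decorin, at 1919 against 135 CPM (3.73). Prg4, lubricin, was at 143 CPM against no UMI in TA labelled WT, at least 19.8-fold higher. In the other barcodes fibroblast markers were 13.7 times as high, and Thbs4 and Dcn had log2 ratios of 3 and 4.04. Nppc, a natriuretic peptide and a leading gene of the satellite-like cluster in the clustering below, had no UMI against 419.7 CPM in TA labelled WT. It was thus at least 31.2-fold lower. Esm1, an endothelial proteoglycan, was at 13.4 against 371 CPM.

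Between the EOM libraries the myofibre markers and respiratory subunits went the opposite way. Called genes numbered 359 higher (4.08%) and 809 lower (9.19%) in the library labelled DMD, and 606 against 427 with the median set to 0 or 731 against 324 with TMM factors. Myofibre markers were 3 times as high (2.85 to 3.16, 6 of 7 called higher), muscle isoforms of mitochondrial proteins 2.48 times (4 of 5) and respiratory subunits 1.74 times (15 of 75). The myofibre ratio was 3.53 in the other barcodes and 2.55 without barcodes rich in myofibre markers. Macrophage and monocyte markers were 0.551 times as high, with 5 of 9 called lower, while in the other barcodes they were 3.45 times as high. Many of the largest single differences came from 1 barcode: it held 98.9% of the UMIs of S100a9, a neutrophil calcium-binding protein (612 CPM against none), 91.6% of those of Apod, apolipoprotein D (2198 against 161 CPM), and, in EOM labelled WT, 99.9% of those of Ccl1, a T cell chemokine (none against 4175 CPM). Dlk1, an imprinted ligand-like protein of progenitors, was spread over several barcodes and was at 13.8 against 172 CPM (log2 -2.94). Ccl7, a monocyte chemokine, was at 207 against 22 CPM (2.76).

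Between the muscles, the extraocular mitochondria-rich barcodes of the WT-labelled pair held more matrix and macrophage RNA than those of the TA. Called genes numbered 957 higher in EOM (10.9%) and 465 lower (5.28%), and 732 against 654 with TMM factors. Fibroblast markers were 14.5 times as high and macrophage markers 22.9 times, the latter against only 37 UMIs in TA labelled WT. Both directions also held in the other barcodes. There, fibroblast markers had 149329 of 8261810 nuclear UMIs in EOM labelled WT against 6418 of 7512371 in TA labelled WT. Macrophage markers had 8160 against 2690 UMIs in the same pools. Dcn was at 5299 against 135 CPM (log2 5.19, and 5.25 in the other barcodes), and C1qa and C1qb, complement chains of resident macrophages, at 520 and 480 CPM against 9.6 and 2.4 CPM. Myl3 was at 18.3 against 478 CPM (-4.11), Myh11 at 51.3 against 596 CPM (-3.31) and Acta2, smooth muscle actin, at 33.0 against 516 CPM (-3.61). The mural list as a whole was 0.579 times as high (0.526 to 0.636), with 2 of 10 called higher and 4 lower, and Pdgfrb went the other way, at 443 against 323 CPM. Myofibre markers were 0.506 times as high in EOM, but 2.18 times without barcodes rich in them. Their direction thus depended on marker-rich barcodes, which were picked by the same markers. With at least 200 nuclear UMIs these were 43 of 422 in TA labelled WT and 7 of 279 in EOM labelled WT.

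In the DMD-labelled pair the extraocular mitochondria-rich barcodes were the richer in muscle RNA. Called genes numbered 501 higher in EOM (5.69%) and 866 lower (9.83%), and 758 against 477 with the median set to 0 or 894 against 395 with TMM factors. Myofibre markers were 6.41 times as high and 6.71 times without barcodes rich in them, against 1.56 times in the other barcodes. Respiratory subunits were 2.63 times as high, with 55 of 75 called. Mb was at 4933 against 233 CPM (log2 4.35), Tnnt1, the slow troponin T, at 440 against 4.5 CPM (4.96), and Actc1 at 596 CPM against no UMI in TA labelled DMD, at least 44.3-fold higher. Apobec2, a muscle protein of the cytidine deaminase family, was at 251 CPM against none, at least 18.7-fold higher. These contrasts share libraries with those above and are not independent of them.

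To see which cell classes the mitochondria-rich barcodes came from, all barcodes with at least 200 nuclear UMIs were clustered on nuclear genes, which left 1357 mitochondria-rich and 14863 other barcodes. From over 20% to 80% mitochondrial share 1324 of 1346 barcodes entered, but only 33 of the 1295 over 80%. The classes therefore describe almost only the lower range. Clusters were named from markers, the fibroblast and tenocyte clusters were joined as connective tissue-like after they were seen, and doublets were not removed. Endothelial-like barcodes made up 563 (41.5%) of the 1357, mural-like 252 (18.6%), connective tissue-like 167 (12.3%), myofibre-like 131 (9.65%) and Schwann-like 93 (6.85%). In the same order, these classes made up 37.7%, 17.0%, 19.0%, 4.25% and 2.24% of the other barcodes. By library, endothelial-like barcodes were 58.8%, 33.3%, 32.6% and 34.8% of the mitochondria-rich barcodes. Among the others they were 69.5%, 33.3%, 36.8% and 24.6%. Of the endothelial-like class 13.6% (12.1 to 15.3%), 3.19%, 14.1% and 17.7% lay over the cutoff. Of the mural-like class 27.8% (22.5 to 33.5%), 4.26% (3.45 to 5.20%), 24.8% (17.5 to 33.3%) and 24.8% (19.2 to 31.1%) did. A filter at 20% would thus take the larger share from mural-like barcodes in every library, although the intervals overlap in TA labelled DMD (endothelial-like 2.59 to 3.89%) and in EOM labelled DMD (15 to 20.7%). Of the myofibre-like class 47 of 197, 6 of 288, 16 of 56 and 62 of 222 lay over the cutoff (23.9%, 2.08%, 28.6% and 27.9%). Of the Schwann-like class 9 of 35, 16 of 195, 44 of 89 and 24 of 107 did (25.7%, 8.21%, 49.4% and 22.4%). In EOM labelled WT the filter would thus take nearly every other Schwann-like barcode. Satellite-like barcodes lay over it in 23.4%, 2.94%, 11.7% and 3.83%, and in 24.9%, 7.85%, 27.4% and 13.3% when every barcode was thinned to 200 nuclear UMIs before clustering.

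**Figure D5:**
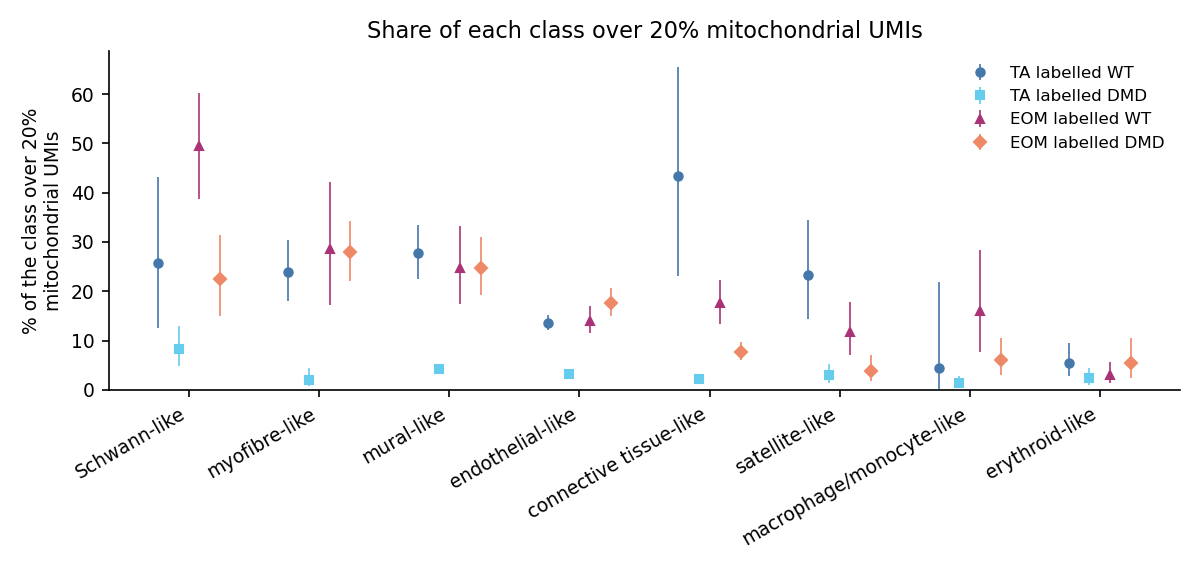
Percent of each cell class over 20% mitochondrial UMIs (vertical axis), among barcodes with at least 200 nuclear UMIs, by class and library, with 95% exact binomial intervals. TA labelled DMD is lowest for the myofibre-like, mural-like, endothelial-like and Schwann-like classes, and the Schwann-like class of EOM labelled WT is at 49.4%.

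Different clusters held these classes in different libraries. The myofibre-like barcodes of TA labelled DMD lay mostly in a cluster (204 of 288) whose leading genes also held Apod, RT1-Db1 and RT1-Da, and those of the other libraries in another. The mural-like barcodes of TA labelled DMD lay mainly in 1 cluster (1198 of 2160). A small mural-like cluster consisted mostly of mitochondria-rich barcodes, 59 of 82 (72.0%), with a median of 502 nuclear UMIs. A cluster of 13 barcodes led by the platelet genes Pf4, Clec1b and Itga2b held 7 mitochondria-rich barcodes and stayed unnamed.

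Within the endothelial-like and mural-like classes, the nuclear respiratory subunits made up a smaller share in mitochondria-rich barcodes. The barcodes compared lay in part in different clusters of a class. In TA labelled DMD, 2 endothelial-like clusters of 559 and 268 barcodes held 31 and 39 mitochondria-rich barcodes, while 2 others of 1088 and 648 barcodes held 11 and 7. In TA labelled WT 1 endothelial-like cluster of 259 barcodes held 100 of them. The part of this make-up in the ratios was not tested. Among endothelial-like barcodes their ratio of mitochondria-rich over other barcodes was 0.885, 0.519, 0.734 and 0.886, and among mural-like barcodes 0.849, 0.810, 0.548 and 0.871, below 1 in all 8 comparisons. Immediate early genes were at 0.872, 0.697, 0.923 and 0.684 in the endothelial-like class and at 0.443, 0.663, 0.824 and 0.804 in the mural-like class. Transcripts of other cell types were higher in mitochondria-rich endothelial-like barcodes: mural markers 3.21, 3.97, 5.87 and 4.20 times, myofibre markers 2.66, 5.91, 7.60 and 4.28 times, fibroblast markers 1.53, 2.37, 6 and 3.08 times and erythroid markers 2.09, 2.84, 2.30 and 2.97 times. Endothelial markers, which defined the class, were at 0.866, 0.560, 0.620 and 0.649. The part of free RNA or of mixed droplets in these ratios was not tested. The pools of mitochondria-rich barcodes within classes were small, with 248, 95, 91 and 129 endothelial-like and 75, 92, 31 and 54 mural-like barcodes. Very few UMIs can make or unmake a call in them, so the numbers of calls below carry that limit. Called genes within the endothelial-like class numbered 116 higher and 168 lower (1.41% and 2.04%), 1778 and 1422 (21.5% and 17.2%), 1129 and 1378 (13.7% and 16.7%), and 684 and 768 (8.29% and 9.31%). The genes named next in each class were picked by their highest minimum or lowest maximum log2 ratio over the 4 libraries. Their shared direction is thus part of the choice. Rgs5, a regulator of G protein signals in pericytes, was among the genes higher in all 4 libraries (log2 2.34, 1.33, 2.84 and 1.77). Ccl21, the lymphatic chemokine, was lower in all 4 (-1.90, -3.87, -0.97 and -2.59). Within the mural-like class 898 and 1370 genes were called (10.5% and 16%), 1311 and 1055 (15.3% and 12.3%), 1835 and 2228 (21.5% and 26.1%), and 953 and 1557 (11.2% and 18.2%). There Ccl7 was lower in all 4 libraries (-1.61, -2.37, -3.11 and -2.35), and Ttc3, a ubiquitin ligase, was higher (1.32, 1.5, 1.49 and 1.69).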

How the data were processed

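The authors deposited raw counts of UMIs per gene and barcode, 25399 feature rows in each of 4 matrices. Per the file headers, the counter was Cell Ranger 4.0.0, with rn6 as genome, as the submitters' processing notes give it; libraries used 10x 3' chemistry version 3.1, per the labels' protocols. The sources used here name neither the cell-calling settings nor the annotation. Members and gene lists were chosen with earlier results of these data known. Marker symbols with no feature row were left out. Values of some single genes are not reported here.

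Counts were pooled per library into mitochondria-rich and other barcodes and scaled to CPM of nuclear UMIs. Genes with a mean of at least 10 CPM over 8 pools were tested for a 2-fold difference with 10 CPM added, with exact counting intervals. Named genes are list members, the 10 with the highest minimum or lowest maximum log2 ratio over the libraries, the 8 at each end of a contrast between libraries, and Dmd; of these, those described were chosen after their values were seen. Clustering used scanpy 1.11.5 (counts scaled to 10000, 2000 genes, 30 components, 15 neighbours, Leiden resolution 1). TMM factors came from edgeR 4.0.16 in R 4.3.3. The 2-fold call was tested on simulated data. Doublets were not called. Alternatives varied the cutoff, minimum UMIs and genes, weighting, depth, denominator, prior, filter and scaling.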

Additional observations from a re-analysis of the deposited data

Results flagged for a closer look

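Several gene lists went opposite ways in 2 libraries or muscles by at least 2-fold each, with counting intervals off 1. None of these differences was tested, since each group has 1 library. Values are log2 of the ratio of list shares. Against the other barcodes, macrophage and monocyte markers in mitochondria-rich barcodes were at 1.05 in EOM labelled WT and -1.59 in EOM labelled DMD, and at -2 in TA labelled WT. In EOM labelled WT the direction did not hold under all settings: the ratio, 2.07 as reported, was 1.26 without erythroid-rich barcodes, 0.642 with the cutoff at 50%, 0.818 with all UMIs as the denominator and 0.197 over 80% mitochondrial share. Tenocyte markers were at -1.08 in TA labelled WT and 1.96 in EOM labelled WT. Markers of T and NK cells were at 1.08 in TA labelled DMD and -4.78 in EOM labelled DMD, the latter from 3 UMIs.

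Among mitochondria-rich barcodes, the ratio of DMD over WT labels differed in sign between TA and EOM for 6 lists. Myofibre markers were at -2.08 in TA and 1.59 in EOM, and fast contractile genes at -1.50 and 1.58. Slow contractile genes were at -2.03 and 1.01, and scaffold genes of the sarcomere at -1.42 and 1.49. Muscle isoforms of mitochondrial proteins were at -1.56 and 1.31. Tenocyte markers were at 4.21 and -1.05. In TA the myofibre value without barcodes rich in these markers was a ratio of 0.827, against 0.237 with them. The ratio of scaffold genes of the sarcomere in TA turned to 1.3 without those barcodes.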

How the results depend on the processing

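Values in groups of 4 follow the order TA labelled WT, TA labelled DMD, EOM labelled WT and EOM labelled DMD, and contrasts between libraries follow the order DMD over WT in TA, DMD over WT in EOM, EOM over TA of the WT-labelled pair and EOM over TA of the DMD-labelled pair. The reported share of barcodes over the cutoff was 36.3%, 3.28%, 21.2% and 21.1%. With the cutoff at 10% it was 49.6%, 23.4%, 44.2% and 39.1%, at 30% 31.4%, 1.11%, 14.8% and 16%, and at 50% 27.4%, 0.201%, 9.39% and 11.3%. With at least 1000 UMIs it was 2.47%, 15% and 16.7% (TA labelled DMD, EOM labelled WT and EOM labelled DMD), with at least 2000 UMIs, an alternative added after seeing the data, 13.4%, 1.14%, 9.1% and 10.4%, and with at least 200 genes 15.5%, 17% and 12.4% (TA labelled WT, EOM labelled WT and EOM labelled DMD). TA labelled DMD had the lowest share under each of these settings, and TA labelled WT had the highest except with at least 200 genes, where EOM labelled WT did. The share of the myofibre-like class over the cutoff went from 23.9%, 2.08%, 28.6% and 27.9% to 48.2%, 19.4%, 51.8% and 45% with the cutoff at 10%. Thinning every barcode to 200 nuclear UMIs before clustering left no Schwann-like class, so that class has no value there.

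The myofibre marker fold of mitochondria-rich over other barcodes was 2.46, 1.29, 6.21 and 5.29. It was 2.26, 0.958, 2.97 and 1.63 with the cutoff at 10%, 2.73, 3.06, 9.23 and 6.9 at 30% and 5.73, 1.49, 19.5 and 6.24 at 50%. It was 2.28, 1.94 and 6.35 (TA labelled WT, TA labelled DMD and EOM labelled DMD) with at least 1000 UMIs, 1.78, 4.07 and 4.92 (TA labelled WT, EOM labelled WT and EOM labelled DMD) with at least 200 genes and 2.69, 7.06 and 5.47 (TA labelled WT, EOM labelled WT and EOM labelled DMD) without the deepest 1% of barcodes. As a mean of per-barcode shares it was 2.64, 0.663, 7.93 and 3.96, after thinning to 200 nuclear UMIs 1.93, 0.557, 2.06 and 2.33, and with all UMIs as the denominator 0.539, 0.921, 2.45 and 1.71. Among alternatives added after seeing the data, it was 1.88, 3.69 and 5.05 (TA labelled WT, EOM labelled WT and EOM labelled DMD) without barcodes rich in erythroid markers, 2.1, 5.68 and 5.003 (TA labelled WT, EOM labelled WT and EOM labelled DMD) for barcodes over 20% and at most 80%, and 8.54, 5.42, 34.2 and 17.7 for those over 80%. The fold in TA labelled DMD fell under 1 with the cutoff at 10%, per barcode, after thinning and with all UMIs, and the fold in TA labelled WT fell under 1 with all UMIs; the other folds stayed over 1 under these alternatives.

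Mt-nd1 made up 8.81%, 6.46% and 6.31% (TA labelled DMD, EOM labelled WT and EOM labelled DMD) of the mitochondrial UMIs of mitochondria-rich barcodes, 8.48%, 6.33% and 6.16% (TA labelled DMD, EOM labelled WT and EOM labelled DMD) with the cutoff at 50% and 6.24% (EOM labelled DMD) with at least 1000 UMIs. Mt-co1 made up 13.3%, 17% and 17.7% (TA labelled DMD, EOM labelled WT and EOM labelled DMD), 13.8%, 17.7% and 18% (TA labelled DMD, EOM labelled WT and EOM labelled DMD) and 17.3% and 17.9% (EOM labelled WT and EOM labelled DMD) under the same 3 settings. Nuclear genes past 2-fold against other barcodes numbered 432, 1146, 2397 and 698. The count was 1417, 2205, 3836 and 1461 with a prior of 1 CPM, 51, 153, 452 and 200 with 50 CPM and 177, 380, 981 and 332 with a filter at a mean of 50 CPM. It was 2015, 7503, 4944 and 3387 with the cutoff at 50%, 1332 (EOM labelled WT) with at least 200 genes, 248 and 714 (TA labelled WT and EOM labelled WT) with the median log2 ratio set to 0 and 286 and 986 (TA labelled WT and EOM labelled WT) with edgeR's TMM scaling. Added after seeing the data, it was 240 and 816 (TA labelled WT and EOM labelled WT) without erythroid-rich barcodes, 284, 3200 and 1452 (TA labelled WT, TA labelled DMD and EOM labelled DMD) within endothelial-like barcodes and 2268, 2366, 4063 and 2510 within mural-like barcodes. Genes past 2-fold between libraries numbered 1561, 1168, 1422 and 1367. That count was 2537, 2095, 2295 and 2311 with a prior of 1 CPM, 392, 191, 387 and 329 with 50 CPM, 555, 359, 478 and 513 with the filter at 50 CPM and 6873, 4366, 4293 and 6374 with the cutoff at 50%, where fewer barcodes and UMIs enter each pool.

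Some called values changed direction. Without erythroid-rich barcodes the log2 ratios that had been negative became Alas2 0.69 (TA labelled WT), Hba-a3 0.54 (TA labelled WT), 0.61 (EOM labelled WT) and 0.12 (EOM labelled DMD), Hbb 1.73 (TA labelled WT), 0.00365 (TA labelled DMD), 0.97 (EOM labelled WT) and 1.22 (EOM labelled DMD) and Hbb-bs 1.11 (TA labelled WT) and 0.77 (EOM labelled WT), and the list ratio became erythroid 3.2 (TA labelled WT), 2.36 (EOM labelled WT) and 3.06 (EOM labelled DMD). With the cutoff at 50%, which leaves few barcodes in TA labelled DMD, log2 ratios became Ccl1 -1.16 (EOM over TA of the WT-labelled pair), Mrvi1 -2.89 (TA labelled DMD), Myh3 -0.23 (TA labelled DMD), Myh4 -2.73 (TA labelled DMD), Myl3 -0.69 (TA labelled DMD), Neb -2.08 (TA labelled DMD), Notch3 -1.83 (TA labelled DMD), Pdgfrb -0.81 (EOM labelled WT), Pvalb -1.97 (TA labelled DMD), Scn7a -0.065 (TA labelled WT), Tenm2 -0.31 (TA labelled WT) and -1.35 (TA labelled DMD), Thbs4 -3.27 (DMD over WT in TA), Tnnt1 -2.40 (EOM labelled WT) and Tnnt3 -0.61 (TA labelled DMD), and list ratios Schwann 0.987 (EOM labelled DMD), macrophage/monocyte 0.642 (EOM labelled WT) and 0 (DMD over WT in TA), mural 0.926 (TA labelled DMD) and developmental and extraocular contractile 0 (TA labelled DMD), 0 (DMD over WT in TA) and 0.713 (DMD over WT in EOM). Without the deepest 1% of barcodes, log2 ratios became Ccl1 -0.37 (EOM over TA of the WT-labelled pair), Gzmbl2 0.36 (DMD over WT in EOM) and Xcl1 0.36 (DMD over WT in EOM). With at least 200 genes they became Hbb 0.42 (TA labelled DMD) and 0.11 (EOM labelled DMD) and Hbb-bs 0.091 (TA labelled DMD), and the list ratio erythroid 3.87 (DMD over WT in TA) and 0.844 (EOM over TA of the DMD-labelled pair). With all UMIs as the denominator, list ratios became calcium handling of muscle fibres 0.476 (TA labelled WT) and 0.999 (EOM labelled DMD), macrophage/monocyte 0.818 (EOM labelled WT), mural 0.66 (EOM labelled DMD), developmental and extraocular contractile 0.609 (TA labelled WT), fast fibre contractile 0.559 (TA labelled WT), glycolysis and glycogen use 0.936 (EOM labelled WT) and 0.748 (EOM labelled DMD), mitochondrial genome upkeep and expression 0.868 (EOM labelled WT), sarcomere scaffold 0.459 (TA labelled WT) and slow fibre contractile 0.845 (EOM labelled DMD). For barcodes over 80% only, list ratios became Schwann 0.855 (EOM labelled DMD), endothelial 1.8 (TA labelled DMD), macrophage/monocyte 0.197 (EOM labelled WT), mural 0 (TA labelled DMD) and 0.235 (EOM labelled DMD) and developmental and extraocular contractile 0 (TA labelled DMD). Without barcodes rich in myofibre markers, list ratios became sarcomere scaffold 1.3 (DMD over WT in TA) and 1.07 (EOM over TA of the WT-labelled pair). A ratio of 0 means no UMI on the list in the first pool. The cause of these changes was not tested.

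Of the recomputed values of single genes, lists and classes named in the text or chosen by the same rule, 2336 moved by less than their limit, 1422 moved further in the same direction or without a call, and 62 changed direction. Of the summary values (shares of barcodes, myofibre ratios and class shares, Mt-nd1 and Mt-co1 shares and gene counts), 72 stayed within their limit, 123 moved further and 1 changed direction. Values that moved further include ratios that crossed 1, such as the myofibre ratio of TA labelled DMD, 1.29 as reported and 0.557 after thinning. No paired analysis was possible because each group has 1 library. With 1 library per group, differences between libraries carry no replicate error, and the intervals given cover counting error only. Depth limits the barcodes over 80%, whose median of 15 nuclear UMIs allows statements on pooled lists but not on single barcodes, and TA labelled DMD had only 9 of them.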
